A study of Mus musculus with 6 samples.

Results

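Transcripts of the nuclear receptor superfamily were examined in dorsal root ganglion (DRG) cells of mouse embryos shortly before birth. The members were 46 genes, picked by symbol as steroid, thyroid hormone, retinoid and orphan receptors, and all 46 were matched to 1 row each among the 41388 Ensembl genes of the count tables. Cells carrying a Ret-EGFP reporter were sorted from ganglia of spinal levels T11 to S1 of C57BL/6 embryos at 18.5 dpc (days post coitum). The 6 libraries were 3 from males (male A, male C and male D) and 3 from females (female A, female B and female C). Every embryo carried the reporter. The genotype label reads Tg(Ret-EGFP)SJ, a transgene, whereas the series text has EGFP inserted at the Ret locus in heterozygotes, so the state of the Ret alleles is not settled here, and none of the 6 libraries came from embryos without the reporter. Ret encodes the receptor kinase for ligands of the GDNF family, and its reporter decided which cells were collected. Libraries were pools of ganglia from whole embryos. Pools of 3 embryos (60 ganglia) made up male A and female A, pools of 2 embryos (40 ganglia) the remaining males, and single embryos (20 ganglia) female B and female C. Male C drew on 2 mothers, and so did female A. Female B and female C were submitted as a second set of records, called record set 2 here, and the other 4 libraries are record set 1.

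Nuclear receptors are transcription factors with a zinc-finger domain that binds short DNA elements and, in most members, a pocket that binds a small lipophilic ligand such as a steroid, thyroid hormone or retinoic acid. Many of them bind DNA as heterodimers with a retinoid X receptor (RXR), steroid receptors pair with themselves, and several orphan receptors have no known natural ligand. In sensory ganglia they are studied for how retinoic acid and thyroid hormone act on neurons and glia, and for how activity-induced members of the NR4A group follow stimulation.

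Between 17861500 and 29330101 counts were assigned in each library. A count of 0 therefore leaves room for 3 counts, equal to 0.102 to 0.168 CPM. Sensory neuron markers were abundant, with mean levels of 2781 RPKM for Stmn2 and 2389 for Tubb3, and Ret stood at 24.7 ± 3.70 RPKM (SD, n = 6). One library stood apart. In male A the summed level of 9 glial markers was 1110 RPKM against 582 to 640 in the other 5 libraries, and that of 8 fibroblast markers was 440 against 167 to 224. Another library went partly against its label. Male C held Xist, the RNA of the inactive X chromosome, at 3.29 RPKM. Male A had 0.0233, male D 0.0321 and each female at least 6.22. Male C also held Y-linked Kdm5d at 0.641 RPKM, below the other males (0.737 and 1.05), against at most 0.00365 in the females. It was lowest of the males for Y-linked Eif2s3y, at 4.81 RPKM against 10.8 and 15.3, and Uty, at 1.68 against 1.77 and 4.54. Y-linked Ddx3y was at 11 RPKM in male C, 9.4 in male A and 38.8 in male D. The list medians given for the sexes, and several sex contrasts, are also given without male A and without male C.

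Of the 46 members, 12 were expressed, meaning at least 1 RPKM in each of the 6 libraries, 27 were low, 21 of these with at least 1 count in every library, and 7 were near absent with at most 3 counts in any library. RPKM (reads per kilobase of exon relative to library size) were taken with TMM factors, edgeR's scaling for composition, in the library sizes, and only such per-length values are compared between genes. The expressed share was 26.1% of the 46 members, beside 24.8% of all 41388 features. Among genes with at least 1 count it was 27.9% of 43 members, beside 39.7% of 25811 genes. In order of mean level the expressed members were Nr4a1, Thra, Nr2f2, Rxrg, Nr1h2, Nr2c2, Nr2c1, Nr2f1, Nr1d1, Rxrb, Rarb and Nr3c1. Together they made up 86.8% to 93.7% of the summed RPKM of all 46. A stricter limit of 2 RPKM in each library left 7 of them, a limit of 0.5 RPKM gave 15 members, and 1 TPM gave 17.

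The order among neighbours was loose. Of the 11 pairs adjacent in rank, 10 had ranges that overlapped, and the exception was Nr1h2 above Nr2c2 in 6 of 6 libraries. By median level Nr1h2 stood ahead of Rxrg and Nr1d1 ahead of Nr2f1. The coefficient of variation over 6 libraries was under 20% for Thra, Nr1d1 and Nr2c1, and over 50% for Nr4a1, Rxrg, Nr2f1 and Nr2f2. Without male A only Nr2f2 of these 4 kept a value over 50%, and without male C its value was 33.0%.

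**Figure D1:**
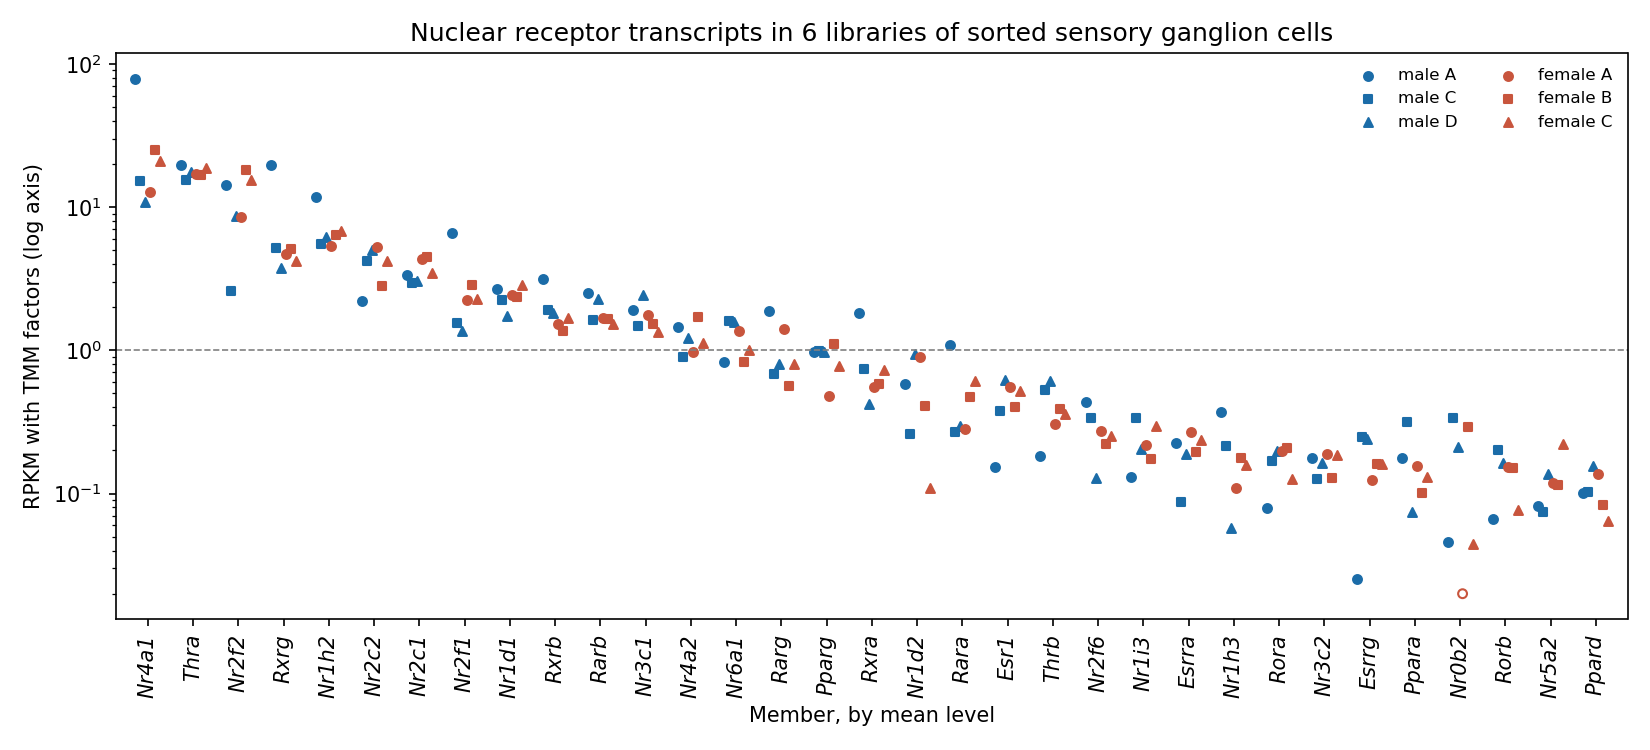
Levels of the 33 members with a mean of at least 0.1 RPKM, in mean order, in each of the 6 libraries (log axis, RPKM with TMM factors); blue marks are male and red marks female libraries, and the dashed line is 1 RPKM. Levels ran from 78.6 RPKM for Nr4a1 in male A down to a listed 0 for Nr0b2 in female A, drawn as an open mark at 0.02.

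The NR4A receptors are orphan receptors whose genes are induced within minutes to hours by depolarisation, calcium and cAMP, and they bind DNA without a ligand. Nr4a1 (Nur77 protein, ENSMUSG00000023034, chr15:101266846-101274792 on GRCm38.p2) had the highest mean level of the 46 members, above 91.6% of all genes with a count. Its level was 78.6, 15.2 and 10.8 RPKM in males A, C and D and 12.7, 25.1 and 20.8 in females A, B and C. Male A was highest by 3.13-fold over the next library, and female B and female C were next. The mean of 27.2 ± 25.7 RPKM (SD, n = 6) became 16.9 ± 5.93 without male A. Nr4a1 supplied between 14.5% and 44.3% of the summed RPKM of the 46. Nr4a2 (Nurr1), a factor of dopaminergic neurons, was low, at 0.897 to 1.72 RPKM, and Nr4a1 exceeded it in 6 of 6 libraries by a median of 15.8-fold. Nr4a3 (Nor1) had 0 to 11 counts per library.

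Other immediate early genes differed between libraries too. Of the 18 genes on that list 12 were expressed, and their summed level was 383, 180 and 225 RPKM in males A, C and D and 199, 475 and 354 in females A, B and C. Fos, the leading gene, stood at 206 RPKM in male A and at 291 and 212 in females B and C, against 76.3 to 101 in the other 3. Klf6 and Btg2 followed by mean level, at 41.4 and 25.4 RPKM. Thus Nr4a1 and the list sum were high in the same 3 libraries, but male A led for Nr4a1 and female B for the sum. Fos was the largest part of that sum. Of the 16 tested genes on the list 5 were, like Nr4a1, highest in male A. For 2 of these, Egr2 and Ier2, male A was at least 2-fold above each other library.

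Because both genes are known for rapid induction, the bases upstream of both NR4A genes are shown, with matches to TGACG, the core of the cAMP response element, on either strand in capitals. Sequences are from RefSeq on GRCm38.p6 and are the 250 bases before the annotated start, printed 5′ to 3′ on the gene's strand, where a minus-strand match reads CGTCA.
Nr4a1, chr15:101266596-101266845, plus strand: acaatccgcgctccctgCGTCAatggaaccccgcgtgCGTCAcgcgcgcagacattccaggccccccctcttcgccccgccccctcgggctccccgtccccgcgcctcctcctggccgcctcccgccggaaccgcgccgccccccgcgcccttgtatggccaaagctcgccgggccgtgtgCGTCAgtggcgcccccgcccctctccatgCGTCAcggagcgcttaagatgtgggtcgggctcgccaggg
Nr4a2, chr2:57124004-57124253, minus strand: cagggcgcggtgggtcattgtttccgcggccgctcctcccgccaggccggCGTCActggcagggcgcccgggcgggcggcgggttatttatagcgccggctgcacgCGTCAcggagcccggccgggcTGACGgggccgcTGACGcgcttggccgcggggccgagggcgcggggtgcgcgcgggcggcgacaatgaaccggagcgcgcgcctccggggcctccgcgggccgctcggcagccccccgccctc
Each of these stretches held 4 matches, all 4 on the minus strand for Nr4a1. Over windows of 300 bases (250 before and 50 after a start), TGACG or its reverse complement occurred in 17 of 63 windows of the 42 members in the table, a share of 27.0%, and in 20.8% of 32851 windows of all genes. Nr4a3 also had a window with a match. A match is a string of letters and says nothing on binding.

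COUP-TF receptors, mostly repressors that guide cell fate in the nervous system, supplied the third most abundant member. Nr2f2 (COUP-TFII, ENSMUSG00000030551, chr7:70351946-70366735) was at 14.3, 2.61 and 8.62 RPKM in males A, C and D and at 8.50, 18.1 and 15.5 in females A, B and C. Male C was over 2-fold below each other library, and the ranges of the other males and the females overlapped. Nr2f1 (COUP-TFI) stood at 6.55, 1.56 and 1.37 RPKM in males A, C and D and at 2.24, 2.88 and 2.30 in females A, B and C. The Nr2f1 mean of 2.81 ± 1.91 RPKM (SD, n = 6) was 2.07 ± 0.608 without male A. Nr2f2 exceeded Nr2f1 in 6 of 6 libraries, by 1.68-fold in male C up to 6.74-fold in female C. Nr2f6, the third COUP-TF, was low at 0.276 ± 0.105 RPKM (SD, n = 6), and 54.4% of its exon length is shared with Ocel1 on the opposite strand.

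The testicular receptors TR2 (Nr2c1) and TR4 (Nr2c2) are orphan receptors that bind direct repeats, often together. Nr2c2 was at 2.21, 4.23 and 5.04 RPKM in males A, C and D and at 5.25, 2.79 and 4.22 in females A, B and C. It was the 1 expressed member with its lowest level in male A. Exons of Mrps25 on the opposite strand cover 3533 bp, or 38.6%, of the exon length of Nr2c2, and Mrps25 itself had 1468 to 2773 counts. The sources used here give no strand setting for the counting, so reads of that stretch cannot be told apart. A GENCODE M21 transcript named Gm42933 also matches 2070 bp of Nr2c2. Nr2c1, with no such overlap, stood at 3.33, 2.96 and 3.03 RPKM in males A, C and D and at 4.37, 4.46 and 3.48 in females A, B and C. The lowest female value for Nr2c1 (female C) lay just above the highest male value (male A). The remaining orphan receptors of this subfamily, Nr2e1 (TLX, of neural stem cells) and Nr2e3 (PNR, of photoreceptors), had 0 counts in every library.

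Thyroid hormone receptors bind T3 and, without it, repress their targets. Thra (TRα, ENSMUSG00000058756, chr11:98740638-98769006) was the steadiest member, at 19.7, 15.3 and 17.6 RPKM in males A, C and D and at 17.1, 16.8 and 18.8 in females A, B and C. Its coefficient of variation was 8.77%, the lowest of the 12 expressed members, and it outranked Nr4a1 in 3 of 6 libraries. Thrb (TRβ) was low, at 0.183 to 0.614 RPKM, so that Thra exceeded it by a median of 47.8-fold (range 28.6 to 108). Exons of Thra overlap those of Nr1d1 on the opposite strand over 263 bp, which is 5.70% of Thra and 8.55% of Nr1d1. Of 10 genes for hormone transport and deiodination 4 were expressed, among them Slc3a2, a subunit of amino acid and hormone transporters, at 27.1 RPKM and Crym, a T3-binding protein, at 16.6 RPKM. The deiodinase genes were not expressed by this rule. Dio2, which makes T3 from T4, was at 0.0471 to 0.189 RPKM, Dio3 had 3 counts in all and Dio1 none.

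Of 8 thyroid hormone response genes 2 were expressed, Mbp and Klf9. Mbp, a myelin protein gene, was at 79.1 RPKM in male A against 9.68 to 13.8 in the other 5 libraries, and most glial markers were likewise highest there. Klf9 stood at 2.03 to 5.76 RPKM with no such step. Next by level came Hr, at 0.333 RPKM.

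Retinoic acid receptors (RARs) bind all-trans retinoic acid and work as heterodimers with RXRs, which are also partners of thyroid hormone receptors, LXRs and PPARs. Among the RXRs the gamma form led. Rxrg (ENSMUSG00000015843, chr1:167598384-167639623) was at 19.6, 5.14 and 3.73 RPKM in males A, C and D and at 4.73, 5.06 and 4.18 in females A, B and C. Outside male A the 5 libraries were close, at 4.57 ± 0.599 RPKM (SD, n = 5). Rxrb was at 3.13, 1.91 and 1.83 RPKM in males A, C and D and at 1.52, 1.36 and 1.68 in females A, B and C, so the females lay below the males without overlap. Rxra was low, with 1.81 RPKM in male A and 0.421 to 0.742 elsewhere. The order Rxrg over Rxrb over Rxra held in 6 of 6 libraries.

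Among RARs, Rarb, itself a classical retinoic acid target, was the expressed one, at 2.53, 1.63 and 2.27 RPKM in males A, C and D and at 1.67, 1.64 and 1.52 in females A, B and C. It exceeded Rarg by a median of 2.13-fold and Rara by 4.71-fold, in 6 of 6 libraries each. Rarg ranged from 0.565 to 1.89 RPKM and Rara from 0.268 to 1.09. In the GENCODE M21 transcripts, 1433 bp of the longest Rarb transcript also occur in a Top2b transcript, which makes the Rarb level less certain. All 6 RAR and RXR genes were highest in male A, with a summed level of 30.0 RPKM against 9.36 to 10.4.

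Rxrg and Rxra were the 2 members with an AAAGGTCA match (the NBRE, a site bound by NR4A monomers) in a promoter window. Both stood over 2-fold higher in male A than in any other library, but so did Nr4a1 and Nr2f1, whose windows held no match. Shown are again the 250 bases before a RefSeq start on GRCm38.p6, with the match in capitals.
Rxrg, chr1:167618015-167618264, plus strand: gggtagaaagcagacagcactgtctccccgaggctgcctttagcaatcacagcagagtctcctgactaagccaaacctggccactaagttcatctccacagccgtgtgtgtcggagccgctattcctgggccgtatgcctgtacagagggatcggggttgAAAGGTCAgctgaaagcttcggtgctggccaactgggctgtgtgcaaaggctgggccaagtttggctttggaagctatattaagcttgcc
Rxra, chr2:27709042-27709291, plus strand: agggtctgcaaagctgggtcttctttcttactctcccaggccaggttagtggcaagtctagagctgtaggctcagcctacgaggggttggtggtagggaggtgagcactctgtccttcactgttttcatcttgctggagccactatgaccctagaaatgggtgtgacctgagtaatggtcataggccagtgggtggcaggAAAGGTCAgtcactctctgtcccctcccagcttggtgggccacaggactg
Both starts are internal, 19881 bp inside the gene span of the files for Rxrg and 32852 bp for Rxra, and each gene has another window without a match. Gene-level counts do not tell which start was used. AAAGGTCA or its reverse complement occurred in 2 of 63 member windows, a share of 3.2%, and in 1.51% of all windows, searched on both strands. It contains AGGTCA, the half-site of most nuclear receptors. No reading of NR4A activity follows from the letters.

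Supply and handling of retinoids was represented by 6 expressed genes out of 18. Fabp5 and Crabp2, which carry retinoic acid to the nucleus, stood at 46.4 and 39.6 RPKM, and the retinal reductase gene Rdh11 at 23.7 RPKM. Among synthesis genes Aldh1a1 was low at 0.178 to 0.992 RPKM. Cyp26c1, for clearance, and Dhrs9 had no count. Of 10 retinoic acid response genes 4 were expressed, among them Crabp2, Dhrs3 and Rarb. Dhrs3, a retinal reductase gene, was at 25.7 RPKM in male A against 7.92 to 18.3 in the others.

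Receptors for oxysterols and bile acids, fatty acids and xenobiotics followed. Liver X receptors (LXRs) sense oxysterols and switch on cholesterol export, and the beta form Nr1h2 was at 11.8, 5.53 and 6.19 RPKM in males A, C and D and at 5.32, 6.34 and 6.79 in females A, B and C. The Nr1h2 mean of 6.99 ± 2.41 RPKM (SD, n = 6) was 6.04 ± 0.606 without male A. The alpha form Nr1h3 was low, at 0.0571 to 0.374 RPKM, a median of 39.4-fold below. Of 12 LXR and sterol response genes 11 were expressed, led by Scd2 at 266, Apoe at 197 and Sqle at 81.2 RPKM. Apoe, also a glial marker, was at 487 RPKM in male A against 69.2 to 172.

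Of the PPARs, which sense fatty acids, none was expressed by the rule. Pparg ranged from 0.483 to 1.11 RPKM, Ppara from 0.0749 to 0.314 and Ppard from 0.0648 to 0.155. Estrogen-related receptors, orphan regulators of mitochondrial genes, were low or near absent: Esrra 0.201 ± 0.0628 RPKM, Esrrg 0.160 ± 0.0822 (SD, n = 6 each), and Esrrb 3 counts in all. Of 13 PPAR and ERR response genes 10 were expressed, with Idh3a at 224, Atp5b at 185 and Acadm at 39.9 RPKM. The xenobiotic receptor PXR (Nr1i2) had no count, and CAR (Nr1i3) was at 0.227 ± 0.0765 RPKM (SD, n = 6), with 51.4% of its exon length shared with Tomm40l on the opposite strand. The bile acid receptor FXR (Nr1h4) had 2 counts in all, and the vitamin D receptor Vdr 0 to 15 per library.

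Among steroid receptors the glucocorticoid receptor was the expressed one. Nr3c1 was at 1.90, 1.47 and 2.45 RPKM in males A, C and D and at 1.76, 1.52 and 1.34 in females A, B and C, with overlapping sexes. It exceeded the mineralocorticoid receptor Nr3c2, at 0.127 to 0.190 RPKM, by a median of 11.1-fold. The estrogen receptor alpha gene Esr1 was low but counted in every library, at 0.153, 0.378 and 0.621 RPKM in males A, C and D and at 0.551, 0.401 and 0.524 in females A, B and C, which puts male A over 2-fold below each of the others. Estrogen receptor beta (Esr2) had 1 to 11 counts per library. The progesterone receptor Pgr, an estrogen target in other tissues, had 0, 17 and 10 counts in males A, C and D and 29, 12 and 1 in females A, B and C. These counts are too few to rank the libraries.

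Downstream and around these receptors, 11 of 14 glucocorticoid response genes were expressed, led by Tsc22d3 (GILZ) at 65.5, Cdkn1a at 46.1 and Mt1 at 20.1 RPKM. Tsc22d3 had a narrow range of 58.9 to 79.1 RPKM, whereas Mt1 was at 52.2 in male A against 10.3 to 16.2. The chaperones that hold steroid receptors ready for ligand were expressed in 9 of 9 cases, with Hsp90ab1 at 1354, St13 at 265 and Hspa8 at 259 RPKM. Of 14 genes for steroid synthesis and interconversion 5 were expressed, led by Hsd17b10 at 88.3, Hsd17b4 at 28.8 and Tspo at 16.4 RPKM. Cyp11a1, which opens the route from cholesterol, and Cyp17a1 had no count.

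Rev-erb and ROR receptors form the feedback loop that times the clock gene Arntl. Nr1d1 (Rev-erbα) was at 2.67, 2.25 and 1.74 RPKM in males A, C and D and at 2.43, 2.35 and 2.85 in females A, B and C. Nr1d2 (Rev-erbβ) was low and more variable, at 0.585, 0.260 and 0.939 RPKM in males A, C and D and at 0.894, 0.409 and 0.110 in females A, B and C. Female C was over 2-fold below each other library for Nr1d2, with 11 counts. A GENCODE M21 transcript named AC170187.1 matches 1385 bp of Nr1d2 at 96.1% identity, so its reads may be split. Rora and Rorb were at 0.163 and 0.135 RPKM. Of 17 clock genes 9 were expressed, led by Csnk1d at 22.9, Bhlhe41 at 14.3 and Cry2 at 11.7 RPKM.

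Several receptors that define other organs were low or near absent. Nr6a1 (GCNF), an orphan repressor of germ cells and early embryos, was at 0.827 to 1.59 RPKM. Nr5a2 (LRH1) had 6 to 17 counts per library, the adrenal and gonadal Nr5a1 (SF1) 1 count in all, and the hepatocyte factors Hnf4a and Hnf4g 0 to 11 and 0 to 9. The members that lack a DNA-binding domain were also scarce, with 0 to 12 counts for Nr0b2 (SHP) and 2 counts in all for Nr0b1 (DAX1). A count of 0 allows up to 0.102 to 0.168 CPM, so transcripts of few cells may go undetected at this depth. In bulk libraries fewer cells of a type and less RNA per cell cannot be told apart.

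Coregulators were broadly present, with 19 of 21 measured coactivator and corepressor genes expressed. Ncoa7, Hdac3 (the deacetylase of the NCoR complex) and Crebbp led at 30.5, 25.4 and 18.5 RPKM. Their summed level was lowest in male A, at 134 RPKM against 166 to 195.

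Much of the spread among members lay in male A. It was the highest of 6 libraries for 11 of the 31 members tested, 35.5%, beside 31.1% of the 14958 genes tested. It lay at least 2-fold above each other library for 4 members, Nr4a1, Rxrg, Nr2f1 and Rxra, which is 12.9% beside 4.41% of all genes. By Dixon's 95% limit, which compares the gap to the nearest library with the range, male A stood apart as highest for 6 tested members, 19.4% beside 8.85% of all genes, while any library did so, high or low, for the same 6 members beside 12.4% of all genes. At least 2-fold below each other library were 3 members, Esr1, Esrrg and Pgr, 9.68% beside 3.66% of all genes, where Esrrg had 3 counts in male A and Pgr 0 against as few as 1 elsewhere. The summed level of the 46 members was 178 RPKM in male A against 69.0 to 97.3 in the other libraries. Elsewhere such 2-fold steps were seen for Nr2f2 and Esrra, lowest in male C, and Nr1d2, lowest in female C.

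Marker lists stood apart in male A as well. Of the 9 glial markers 8 were highest there and 7 at least 2-fold so, for example Sox10 at 16.1 RPKM against 2.49 to 3.80. Fabp7, the most abundant of them by mean level, was lowest in male A, at 269 RPKM against 331 to 439, and Apoe, at 487, made the largest single part of the male A sum. The fibroblast list had 6 of 7 tested genes highest in male A, led by Col1a1 at 111 RPKM against 5.29 to 13.0, although Dcn, its most abundant gene, was at 138 against 129 to 190. Endothelial markers summed to 15.2 RPKM against 4.67 to 14.3 with 6 of 7 highest in male A, macrophage markers to 14.5 against 8.54 to 12.9, and cell cycle genes to 90.8 against 31.6 to 39.0 with 9 of 9 highest. Erythroid markers, at 12.8 RPKM against 9.90 to 53.0, and sensory neuron markers, at 6670 against 6559 to 9133, did not put male A at the top. No gene of these lists had 0 counts over all libraries. The part of other cell types in the receptor levels of male A was not tested, and neither was that of exon length. Nr4a1, Rxrg, Nr2f1 and Rxra, at least 2-fold higher there, have exon lengths of 2297 to 5462 bp. Esr1, Esrrg and Pgr, at least 2-fold lower there, have 6208 to 13661 bp.

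**Figure D2:**
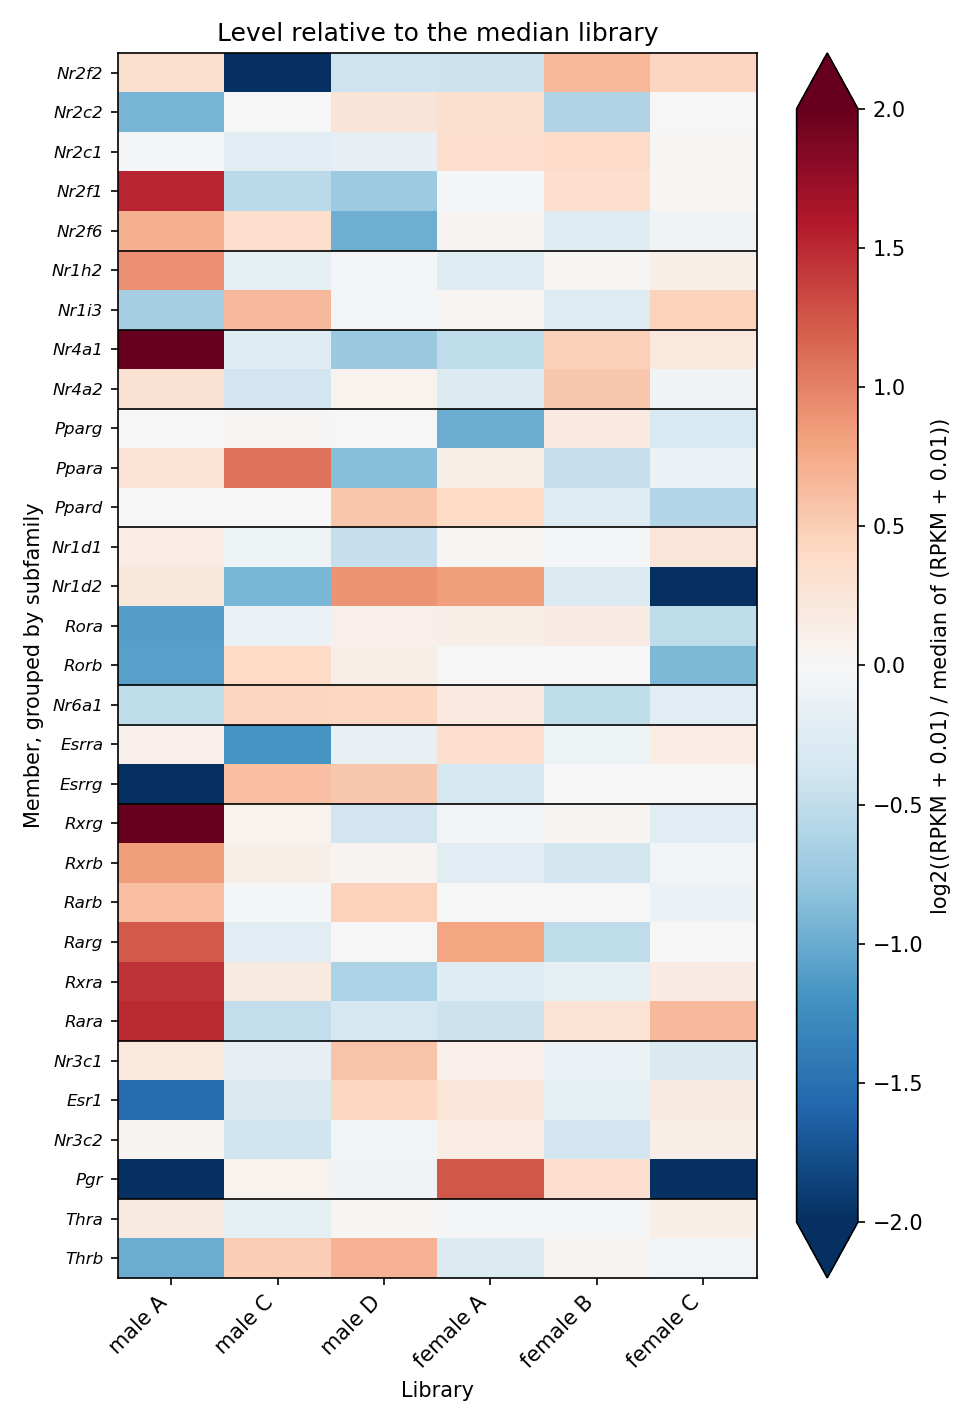
Level of the 31 tested members in each library relative to the median library, as log2 of RPKM plus 0.01 over the median of the same, with colours ending at 2 in either direction and lines between subfamilies. The block of 6 RAR and RXR genes is red throughout in male A, and Esr1, Esrrg and Pgr are blue there.

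**Figure D3:**
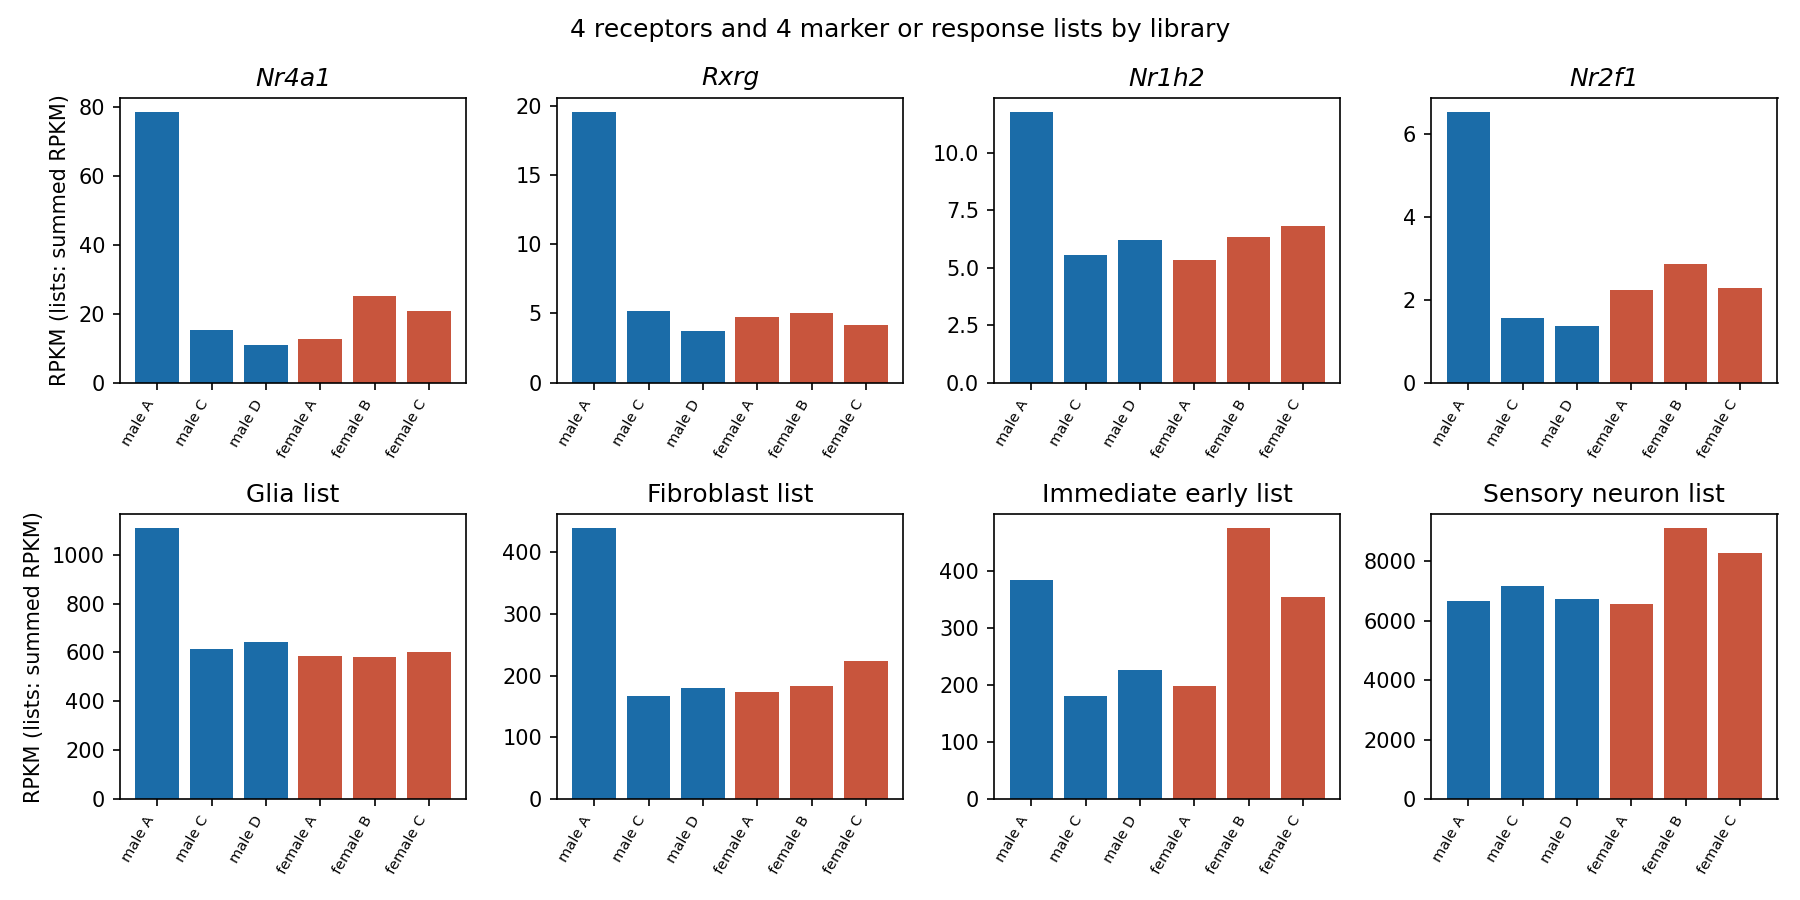
RPKM of Nr4a1, Rxrg, Nr1h2 and Nr2f1 and summed RPKM of 4 gene lists, 1 bar per library (blue male, red female). The glial and fibroblast sums are highest in male A, at 1110 and 440, while the immediate early sum is highest in female B, at 475.

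The sexes, the 1 contrast the labels define, were set side by side in the edgeR quasi-likelihood F-test over all 14958 genes that passed the count filter, 31 of them members. The other 15 members had too few counts. No member passed a Benjamini-Hochberg adjusted p of 0.05, beside 4 genes or 0.0267% of all genes, and none had an unadjusted p under 0.05, beside 4.42%. DESeq2 and limma voom also called 0 members, with 1 (Rxrg) and 0 at an unadjusted p under 0.05, beside 849 and 671 of all 14958 genes. The smallest adjusted p of a member in the edgeR test was 0.961. Of the members 12 had a positive and 19 a negative log2 change (female minus male), with a median of -0.27 beside -0.00 for all genes. Without male A that median was 0.06, with 17 positive and 15 negative. Leaving out male A or male C still gave 0 called members in edgeR. Without male A, 2 of 32 tested members, Nr2f2 and Nr2f1, had an unadjusted p under 0.05, beside 520 of 15335 genes. Without male C, 2 of 34 tested members, Rxrg and Vdr, did so, beside 787 of 15291 genes.

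The largest log2 differences between the sexes were those of Rxrg, Pgr and Nr4a1. For Rxrg the estimate was -1.02 with a standard error of 0.55, 0.07 without male A and -1.32 without male C. Nr4a1 gave -0.83 with a standard error of 0.66, changed sign to 0.58 without male A and was -1.19 without male C. Pgr, with few counts, gave 0.95 with a standard error of 1.06, 0.42 without male A and 1.46 without male C. For Nr2f2 the estimate was 0.72 with a standard error of 0.52, 1.32 without male A and 0.29 without male C. With record set as a term it was -0.00, and 0.00 within record set 1, which holds 1 of the 3 female libraries. Thra, by comparison, was 0.00 with a standard error of 0.19.

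Few members were separated by rank. Nr2c1 was the 1 member with 3 female libraries above 3 male libraries, 3.23% of members beside 4.19% of all genes, with a log2 difference of 0.40 and a standard error of 0.22. Rxrb was the 1 member with females below males, beside 3.88% of all genes, with a log2 difference of -0.59 and a standard error of 0.30. Without male A the Rxrb estimate was -0.30, and without male C it was -0.71.

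**Figure D4:**
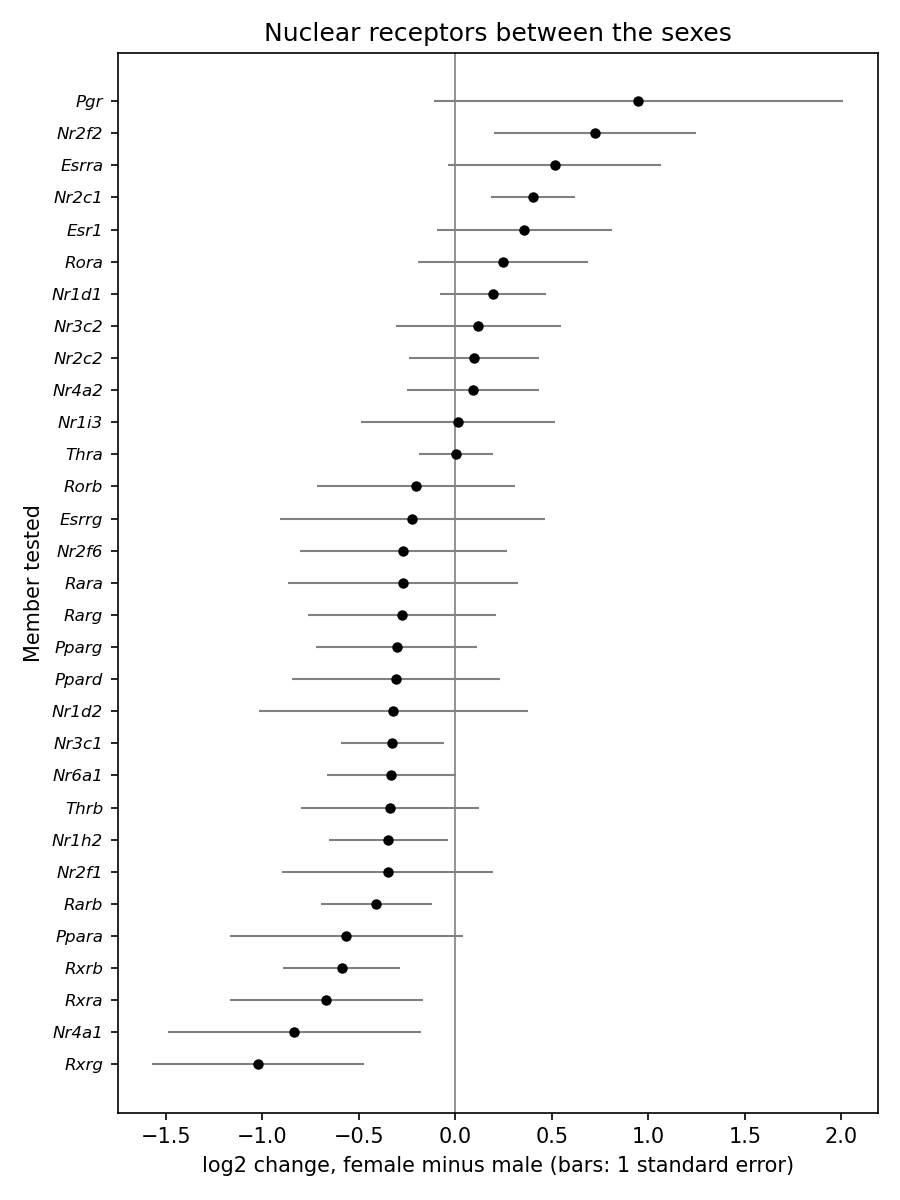
Log2 change (female minus male) of the 31 tested members from the edgeR fit, with bars of 1 standard error, ordered by value. The estimates run from -1.02 for Rxrg to 0.95 for Pgr, and Thra sits at 0.00.

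No gene of the 19 lists of partners, enzymes, response genes and markers was called between the sexes by edgeR. In direction, 10 of 14 glucocorticoid response genes had negative values, with a median log2 of -0.12, which was -0.04 without male A. Retinoic acid response genes had 5 of 6 negative, with a median of -0.52, and 3 of 6 without male A, with a median of 0.09. Steroid synthesis genes had 6 of 9 negative, and their median of -0.14 was 0.03 without male A. Retinoid handling genes had 6 of 11 negative, and their median of -0.00 was 0.20 without male A. Coregulators had 14 of 21 positive, and their median of 0.10 was -0.03 without male A. Chaperones had 5 of 9 positive, and their median of 0.04 was also -0.03 without male A. Without male C the medians were -0.26 for glucocorticoid response and -0.71 for retinoic acid response genes. In that setting steroid synthesis genes had -0.21, retinoid handling genes -0.25, coregulators 0.17 and chaperones 0.09. Plain library totals move the median of all genes to -0.12, so the sign of list medians within about that size depends on the scaling. Glial and fibroblast markers, with medians of -1.21 and -1.10, had 8 of 9 and 6 of 7 negative values. Without male A, 1 of the 3 male libraries, these medians were 0.05 and -0.08, and without male C -1.47 and -1.46.

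Record set 2 was compared with record set 1 in a fit with sex as a term, which rests on female A against female B and female C. Again 0 members were called by edgeR, beside 0% of all genes, and 0 had an unadjusted p under 0.05, beside 3.23%. DESeq2 and limma voom called 0 members, with 0 at an unadjusted p under 0.05, beside 516 and 471 of all 14958 genes. The largest log2 differences (record set 2 minus 1) were -1.90 for Pgr, -1.79 for Nr1d2 and -1.03 for Rarg, with standard errors of 1.496, 0.90 and 0.68. The median over members was -0.08, beside -0.00 for all genes. Nr2f2 was the 1 member with both libraries of record set 2 above the other 4, beside 11.3% of all genes, and Ppard the 1 below, beside 10.3%.

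The Nr2f2 difference was 0.98 on the log2 scale with a standard error of 0.83, and that of Nr4a1 was 0.85 with a standard error of 1.08. In the same comparison 14 of 16 tested immediate early genes and 11 of 11 retinoid handling genes had positive values, with medians of 0.65 each and 0 genes called by edgeR in either list. Embryos per library differ between the sets in the same way, and the effects of record set and pool size cannot be told apart.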

How the data were processed

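RNA was measured in 6 libraries of sorted Ret-EGFP dorsal root ganglion cells. Per the labels' protocols, cells were sorted with 7-AAD into TRIzol-LS and 10 ng of total RNA was amplified by a SMARTer kit for ultra low input, without molecular identifiers. Per the submitters' processing notes, the tools were featureCounts 1.4.5 and Subread, with no version recorded, and the build GRCm38.p2. The sources used here give no strand or multi-mapping setting. The authors deposited raw counts per Ensembl gene with summed exon lengths. The deposited CPM and RPKM values were recomputed from those counts, with largest differences of 4.5e-11 and 6.4e-12, and only counts and lengths were used.

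RPKM were computed with edgeR 4.0.16 TMM factors of 0.922 to 1.08. Sexes (term: sex) and record sets (terms: sex and record set) were tested with the edgeR quasi-likelihood F-test in R 4.3.3 after filterByExpr, with Benjamini-Hochberg adjustment over 14958 genes and a threshold of 0.05. Libraries are separate pools of embryos, and p-values measure the spread between these pools. The common dispersion was 0.0966. Exon overlaps come from the coordinates of the files, near-identical copies (at least 95% identity over at least 150 bp) from blastn 2.17.0 on GENCODE M21 transcripts, and promoter windows from RefSeq. Nr3c1, Thra, Hnf4g and Nr5a1 are not in the promoter table.

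The members and gene lists were chosen with earlier results of these data known. Named genes were every expressed member, the 3 members with the largest log2 change per comparison and the 3 most abundant genes of each list. Other list genes were named after their values were seen. Prmt1 was not matched by symbol, and a few list genes are left out of this text. Alternatives were RLE, upper quartile and no factors, other count filters, DESeq2 1.42.0, limma 3.58.1 voom, robust dispersion, each library left out, a block on the replicate letter, added terms for record set or embryo number, subsets of libraries, TPM and other RPKM limits.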

Additional observations from a re-analysis of the deposited data

Results flagged for a closer look

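Among the 31 members with enough counts to be tested, single libraries far from the other 5 were found for 6, all in male A and all high. Nr4a1 was at 78.6 RPKM in male A against 10.8 to 25.1 in the other libraries, and Rxrg at 19.6 against 3.73 to 5.14. Nr1h2 was at 11.8 RPKM against 5.32 to 6.79, and Nr2f1 at 6.55 against 1.37 to 2.88. The same held for Rxrb, at 3.13 RPKM against 1.36 to 1.91, and for Rxra, at 1.81 against 0.421 to 0.742. In each case the gap to the nearest library exceeded Dixon's 95% limit for 6 values, which chance passes in about 1 in 20 groups. The 6 are 19.4% of the 31 members, and male A was beyond the limit and high for 8.85% of the 14958 genes tested. Any library, high or low, was beyond it for 12.4% of these genes. Outside the 31, Esrrb, Nr0b1 and Nr5a1 also passed the limit, each with at most 3 counts in all. Members share their libraries, so these are not 6 separate events.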

How the results depend on the processing

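No member was called between the sexes under any of 19 alternatives or between the record sets under any of 16, and the smallest adjusted p of a member, over edgeR, DESeq2 and limma voom, was 0.341 and 0.065, the second in the fit of females only. The number of genes called between the sexes was 4. It was 14 with no count filter, 13 with DESeq2, 1 with limma voom, 0 with record set as a term and 0 in record set 1 only, and it ranged from 0 to 5 when each library was left out, with 0 without female A. A replicate block on the letters A and C gave 77 genes and 0 members. Deviations from the mean of each sex correlated at -0.110 for letter A and 0.040 for letter C. With only these 2 pairs, and means that include the library itself, the correlations cannot decide whether a shared letter marks a pairing. Between the record sets the number was 0. It was 3 with no count filter, 13 with DESeq2, 115 in females only, where 1 library stands against 2 and 2176 of 13856 genes had an unadjusted p under 0.05, 3 with no sex term and 139 with male A and male C left out, an alternative chosen after seeing the data. Leaving out single libraries gave 0 each time. Without female A the record set equals sex and could not be fitted. The cause of these shifts was not tested, beyond fewer libraries or other genes entering a fit. The number of expressed members was 12, 7 at a limit of 2 RPKM, 15 at 0.5 RPKM, 17 at 1 TPM, and 12 without any single library. Of the log2 changes of expressed members, 23 of 228 alternatives changed sign between the sexes, with Nr2c1, Nr1d1, Rxrb, Rarb and Nr3c1 keeping theirs, and 19 of 192 between the record sets. Plain library totals shift the median of all genes to -0.10 between the record sets. Low members rest on few counts, and their levels carry counting error.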
